A study of Mus musculus with 12 samples.

Results

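The SR, CLK and hnRNP splicing regulators described here are 40 genes chosen by name, and each was found once among the 56980 gene IDs of the count table. They are 10 SR proteins (Srsf1 to Srsf7, Srsf9, Srsf10 and Srsf11), the 2 Tra2 proteins, 6 kinases of SR proteins (Clk1, Clk2, Clk3, Clk4, Srpk1 and Srpk2) and 5 hnRNP A/B genes (Hnrnpa0, Hnrnpa1, Hnrnpa2b1, Hnrnpa3 and Hnrnpab). The others are 3 hnRNP F/H genes (Hnrnpf, Hnrnph1 and Hnrnph2), 6 further hnRNPs (Hnrnpc, Hnrnpd, Hnrnpk, Hnrnpl, Hnrnpm and Hnrnpu), Ptbp1 and Ptbp3, 5 genes of splice site recognition (U2af1, U2af2, Sf3b1, Sf1 and Rbm39) and Mbnl1. All 40 were among the 15110 genes that passed the filter on low counts. The values are totals per gene, so they show how much RNA a gene gave and not which splice forms it took.

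The RNA came from bone marrow-derived macrophages of mice: marrow cells kept for 7 days in L929-conditioned medium, in which they become macrophages. The 12 libraries form 4 groups of 3: wildtype M0, RankCre-Regnaes3cKO M0, wildtype M1 and RankCre-Regnaes3cKO M1. M0 is taken to be the state without stimulus and M1 the state with 100 ng/ml lipopolysaccharide (LPS) plus 10 ng/ml interferon-gamma. The series asked what Regnase-3, an RNase encoded by Zc3h12c, does in the polarization of macrophages that carry Rank, and its title links Regnase-3 to alternative splicing. RankCre-Regnaes3cKO (the spelling of the labels; cKO below) names a conditional knockout driven by Cre from Rank, the receptor gene Tnfrsf11a. The controls are called wildtype, and a control with Cre alone is not described, so effects of Cre and of the deletion cannot be told apart. The sources used here give no strain, sex, age or duration of stimulation. They leave unsaid whether replicates came from different mice or dishes, and the p-values below therefore cover the spread among these libraries only, which may be technical.

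SR proteins bind exonic enhancers through RNA recognition motifs and recruit the splicing machinery through domains rich in arginine and serine. SRPK kinases phosphorylate those domains and promote nuclear import of SR proteins, and CLK kinases phosphorylate them further in the nucleus. Proteins of the hnRNP families coat nascent transcripts and often oppose SR proteins at silencer elements. Many genes of both classes hold a poison exon or a retained intron through which the protein lowers its own messenger RNA by nonsense-mediated decay, and in macrophages splicing of inflammatory transcripts changes with stimulation.

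Library totals lay between 41721452 and 42197986 counts, and a member held 365 to 30443 counts in a library. The 40 genes together took 0.745% to 0.786% of the counts in the wildtype M0 libraries and 0.797% to 0.812% in cKO M0. In M1 they took 0.353% to 0.372% in wildtype and 0.392% to 0.393% in cKO. The targeted gene Zc3h12c was at 16.4 ± 0.77 and 15.6 ± 2.57 CPM (SD, n = 3) in wildtype and cKO M0, and at 176 ± 16.6 and 109.6 ± 15.2 CPM in M1. In M1 the cKO total was lower (edgeR adjusted p = 0.00101), and in M0 no difference was detectable (adjusted p = 0.809). Any exons outside the deleted part would still count toward the total. The extent of the deletion in these cells was not tested. CPM relates a count to the effective size of its library, the total times a TMM factor, and these factors averaged 1.21 and 1.22 in wildtype and cKO M0 and 0.808 and 0.840 in M1. All 8 macrophage markers were present, with sums of 14204 to 18844 CPM. The summed B cell and plasma cell markers were 53.7 to 70.6 CPM in wildtype M0, 32.9 to 62.4 in cKO M0, 3.16 to 5.20 in wildtype M1 and 0.341 to 0.766 in cKO M1. Neutrophil markers stayed at or under 16.0 CPM, mast cell and basophil markers at or under 7.33 and stromal markers at or under 4.77, and Cd3e and Cd3g were at 0. In wildtype M1, replicate 11 was the highest of its group for Clk1, Clk2, Clk3, Clk4, Srsf2, Srsf11, Hnrnpa1 and Rbm39 and the lowest for Srsf1, Srsf5, Srsf9, Hnrnpa2b1 and Hnrnph2.

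Most of the 40 genes fell when the macrophages were stimulated. In wildtype cells 28 fell and 8 rose from M0 to M1 (edgeR's quasi-likelihood test, adjusted p under 0.05), which is 90% of the members where 71.4% of all genes tested changed. In cKO cells 29 fell and 5 rose, 85% where 70.2% of all genes changed. Over all genes, 37.1% fell and 34.2% rose in wildtype and 36.0% fell and 34.2% rose in cKO. The median log2 change of the members was -0.56 in wildtype and -0.52 in cKO, beside -0.07 and -0.04 over all genes. Every M1 library lay below every M0 library in 27 members in wildtype (39.6% of all genes) and 30 in cKO (37.6%), and above in 8 (36.0%) and 6 (35%). A gene total in a bulk sample falls alike when fewer cells of a type hold it and when each cell holds less of it, and these cannot be told apart.

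The same 27 genes fell in both genotypes, and Clk3, Clk4, Hnrnph2 and Ptbp3 rose in both. Clk1, Clk2, Rbm39 and Srsf11 rose in wildtype and did not pass in cKO, Srsf5 fell in wildtype and did not pass in cKO, and Srsf2 and Srpk1 fell in cKO and did not pass in wildtype. Sf3b1 passed as higher in cKO at the threshold, with log2 0.17 (edgeR adjusted p = 0.0495), and lost that call in 11 of 19 alternatives, among them those without any 1 of the 6 M0 libraries or without cKO M1 replicate 8 or 9. Sf1 passed in neither genotype. A pass in a single genotype is not a difference between genotypes, which was tested separately below.

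These directions rest on the TMM scaling, under which the median gene moves little. Scaled by library totals instead, the median of all genes fell by 0.65 in wildtype and by 0.58 in cKO on the log2 scale, and the share of rises among all calls went from 48.0% to 23.5% in wildtype and from 48.7% to 24.2% in cKO. On that scale 1 member rose and 35 fell in wildtype, where 18.3% of all genes rose and 59.6% fell, and 0 rose and 36 fell in cKO, where 18.4% rose and 57.5% fell. Relative to the median gene, 28 of the 40 lay below and 12 above in wildtype, and 31 below and 9 above in cKO, a position that a scaling common to all genes can hardly change. The 17 proliferation genes moved the same way as the members: 15 fell in either genotype, and their summed level went from 2505 to 3072 CPM in wildtype M0 to 590 to 617 in wildtype M1, and from 3108 to 3423 to 498 to 523 in cKO. Their part in the result was not tested.

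**Figure D1:**
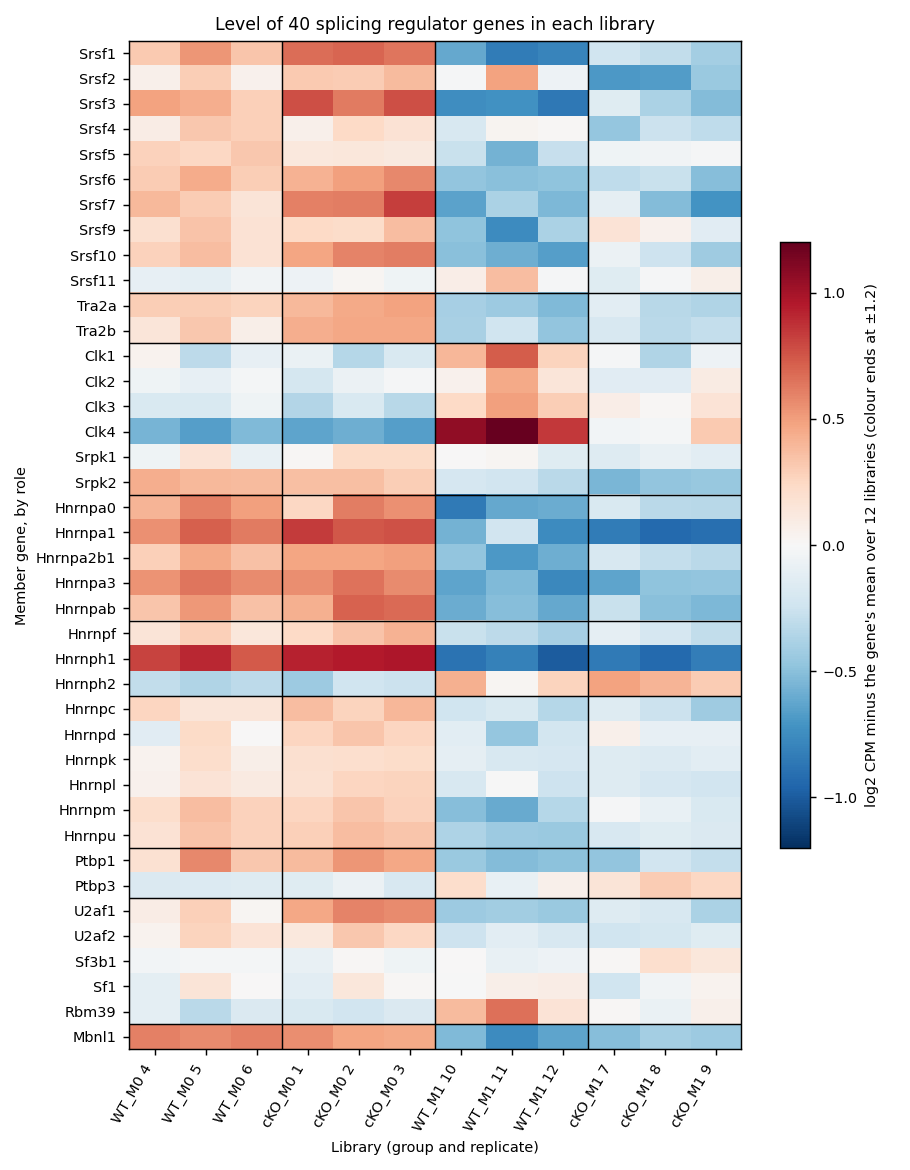
Level of each of the 40 genes (rows, grouped by role) in each of the 12 libraries (columns, by group and replicate), as log2 CPM minus the gene's mean over all libraries, with colour ending at 1.2 in either direction. Hnrnph1 and Hnrnpa1 are above their mean in the 6 M0 libraries and below it in the 6 M1 libraries, and Clk4 is lowest in M0 and highest in wildtype M1.

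**Figure D2:**
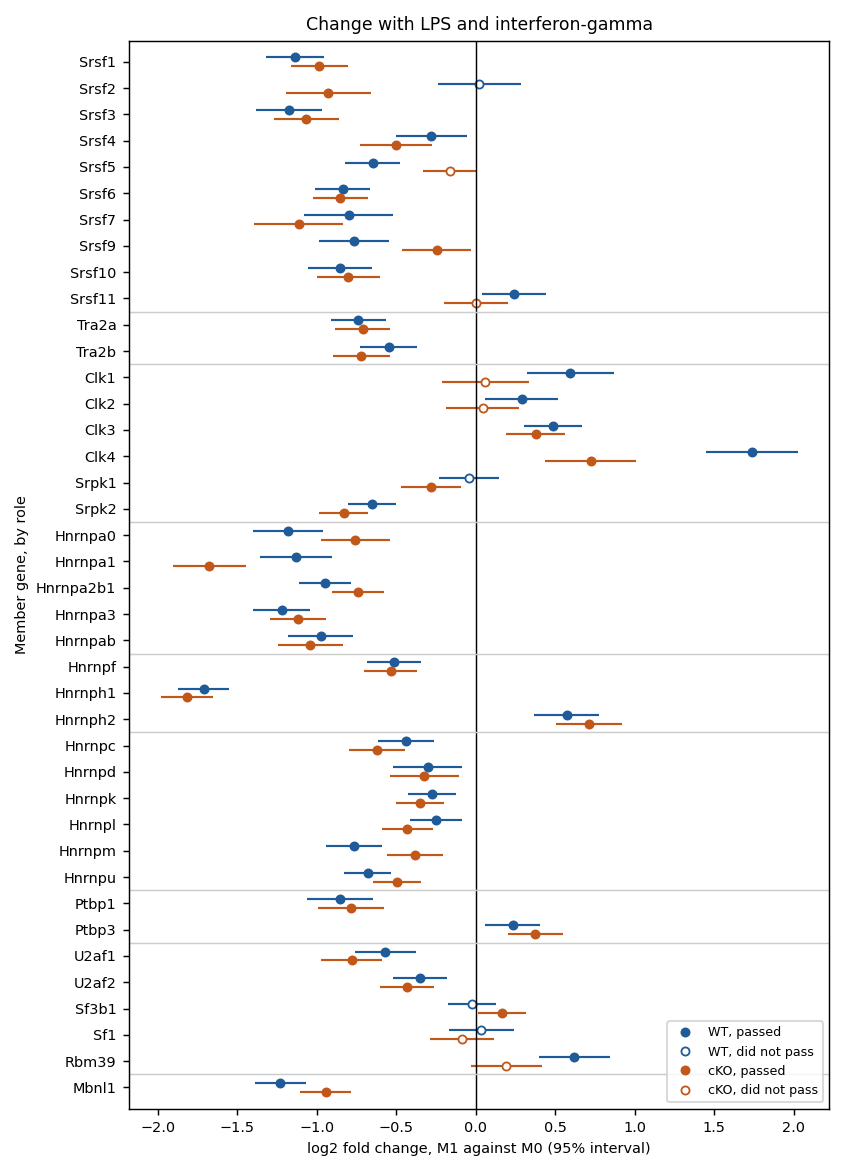
Log2 fold change from M0 to M1 (horizontal axis) with its 95% interval for each gene (vertical axis), in wildtype (blue) and cKO (orange); filled points passed the test. Hnrnph1 lies farthest to the left, at -1.71 and -1.82, and Clk4 farthest to the right in wildtype, at 1.74.

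Between genotypes, 16 members passed in M1 and 1 in M0, and the difference between the states, tested separately below, passed for 5. In M0, 1 of the 40 genes, U2af1, was higher in cKO and 0 were lower, which is 2.5% where 1.61% of all genes were called, 0.662% higher and 0.953% lower. Every cKO M0 library lay above every wildtype M0 library in 14 members (13.3% of all genes) and below in 3 (12.9%). In M0, 8 members had an unadjusted p under 0.05, a share near the 18.6% of all genes, and DESeq2's Wald test called 4 higher and 0 lower, beside 3.35% and 3.80% of all genes it tested. In M1, 9 were higher and 7 lower in cKO, which is 40% where 18.6% of all genes were called, 8.98% higher and 9.67% lower. In 14 members every cKO M1 library lay above every wildtype M1 library (17.4% of all genes) and in 8 every one lay below (16.3%). In 7 members, Srsf1, Srsf3, Srsf10, Tra2a, Hnrnpa2b1, Hnrnpd and U2af1, the cKO libraries lay above in both states (2.51% of all genes). The median log2 difference of the members was 0.08 in M0 and 0.12 in M1, beside 0.01 and 0.02 over all genes. The genotype contrast in M1 and the stimulation contrast in wildtype share the wildtype M1 libraries and are not independent. Scaled by library totals, 12 members were higher and 5 lower in cKO M1, beside 13.1% and 8.20% of all genes, and over all genes the share of higher calls went from 48.2% to 61.5%. Left without wildtype M1 replicate 11, the fit called 5 members higher and 3 lower, and left without cKO M1 replicate 8, 7 and 3. Calls over all genes also became fewer: 671 higher and 987 lower of 15508, and 709 and 985 of 15518. The main fit called 1357 and 1461 of 15110. Also, 7 of the 16 calls held in every alternative tried: Srsf1, Srsf2, Srsf3, Srsf9, Clk1, Clk4 and Hnrnpm.

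The difference between the genotype effects in M1 and M0 passed for 5 members, 12.5% where 8.16% of all genes passed (4.02% upward and 4.14% downward). Clk4, Srsf2 and Hnrnpa1 were the members whose cKO effect was lower in M1 than in M0, and Srsf5 and Srsf9 those whose effect was higher. Scaled by library totals, the share of upward calls among all genes in this test went from 49.3% to 60.5%. Clk4 and Srsf2 passed in each of the 18 alternatives, Srsf5 in 16, Hnrnpa1 in 11 and Srsf9 in 8. To show the sequence upstream of the 5 genes that passed this test, the 250 bases before their annotated starts are given here from RefSeq (build GRCm38.p6; the counts were made on GRCm39), read 5′ to 3′ on the gene's strand. Capitals mark matches on either strand to 6 motifs, and matches that overlap run together. The letters searched were TATAAA for the TATA box and CCAAT for the motif of that name. They were GGGCGG for the GC box and CACGTG for the E-box. For the cyclic AMP response element they were TGACGTCA, and for the ETS core CGGAAG. The windows are chr11:51262864-51263113 on the plus strand for Clk4, chr11:116853095-116853344 on the minus strand for Srsf2, chr15:103240147-103240396 on the plus strand for Hnrnpa1, chr12:80945249-80945498 on the plus strand for Srsf5 and chr5:115326927-115327176 on the plus strand for Srsf9.
Clk4: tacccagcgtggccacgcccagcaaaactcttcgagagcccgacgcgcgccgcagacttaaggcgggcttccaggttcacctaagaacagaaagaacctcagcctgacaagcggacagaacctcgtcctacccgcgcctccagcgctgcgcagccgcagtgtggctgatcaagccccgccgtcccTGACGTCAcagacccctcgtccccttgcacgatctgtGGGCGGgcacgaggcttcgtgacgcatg
Srsf2: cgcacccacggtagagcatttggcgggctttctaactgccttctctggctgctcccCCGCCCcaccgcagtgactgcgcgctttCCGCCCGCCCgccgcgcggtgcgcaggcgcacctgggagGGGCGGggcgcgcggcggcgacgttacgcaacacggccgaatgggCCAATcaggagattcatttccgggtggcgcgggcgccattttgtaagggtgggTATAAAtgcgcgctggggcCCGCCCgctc
Hnrnpa1: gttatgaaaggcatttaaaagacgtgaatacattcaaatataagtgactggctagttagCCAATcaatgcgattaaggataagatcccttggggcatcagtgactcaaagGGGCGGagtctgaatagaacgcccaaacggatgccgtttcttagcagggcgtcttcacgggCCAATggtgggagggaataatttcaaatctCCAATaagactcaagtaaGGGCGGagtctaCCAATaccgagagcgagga
Srsf5: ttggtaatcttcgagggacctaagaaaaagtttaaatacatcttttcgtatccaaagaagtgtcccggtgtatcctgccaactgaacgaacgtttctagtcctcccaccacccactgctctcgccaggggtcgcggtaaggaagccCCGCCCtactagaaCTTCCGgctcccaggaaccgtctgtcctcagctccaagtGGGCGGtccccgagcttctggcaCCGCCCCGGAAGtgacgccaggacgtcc
Srsf9: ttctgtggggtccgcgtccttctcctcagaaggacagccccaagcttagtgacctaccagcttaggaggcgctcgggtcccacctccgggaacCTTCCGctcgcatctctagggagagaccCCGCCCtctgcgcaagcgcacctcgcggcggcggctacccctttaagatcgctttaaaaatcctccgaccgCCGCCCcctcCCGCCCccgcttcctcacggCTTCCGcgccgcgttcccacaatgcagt

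A GC box was found in all 5 of these windows, the cyclic AMP response element only in that of Clk4 among them, the TATA box only in that of Srsf2, and ETS cores only in those of Srsf5 and Srsf9. Windows were matched for 37 of the 40 members; none was used for Clk1, U2af2 and Ptbp3. Some members had several windows, and a gene was counted when any of its windows held a match. Genes with more windows thus had more chances. A GC box was found for 30 of the 37 members (81.1%, beside 35.4% of the 27025 genes with a window). A CCAAT box was found for 22 (59.5% beside 37.5%) and an ETS core for 15 (40.5% beside 15.3%). An E-box was found for 6 members (16.2% beside 6.86%) and a TATA box for 4 (10.8% beside 14.3%). The cyclic AMP response element was found for 2, Clk4 and Tra2a (5.41% beside 1.77%). The median GC content of the members' windows was 63.6%, beside 52.4% over the windows of all genes. The 27025 genes were not limited to genes tested here, so this background is not matched to the members. A match describes letters in the window, not a bound site.

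**Figure D3:**
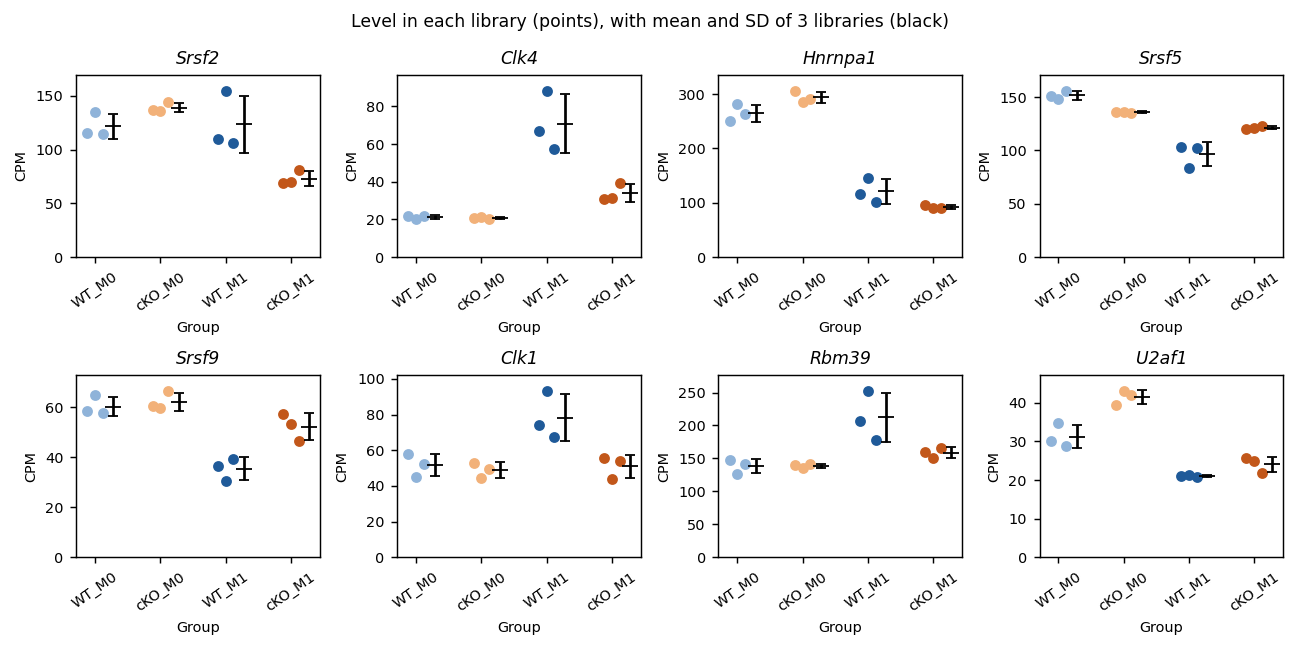
CPM (vertical axis, from 0) in each library (coloured points) of the 4 groups (horizontal axis) for 8 genes named in the text, with the mean and SD of the 3 libraries of a group in black. Clk4 lies at 57.5 to 88.1 CPM in wildtype M1 and at 31.1 to 39.5 in cKO M1, and Srsf2 at 106.2 to 154 and 68.6 to 80.9.

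Of the 10 SR proteins, 8 fell with stimulation in wildtype and 8 in cKO, and 1, Srsf11, rose in wildtype. In cKO M1, 5 were higher (Srsf1, Srsf3, Srsf5, Srsf9 and Srsf10) and 1, Srsf2, was lower than in wildtype. Srsf2, known as SC35 and found in nuclear speckles, was at 115, 135 and 114 CPM in wildtype M0 and 137, 136 and 144 in cKO M0. In M1 it was at 109.7, 154 and 106 CPM in wildtype and 68.6, 69.6 and 80.9 in cKO. Every cKO M1 library was thus below every other library of the 12, while the wildtype M1 values overlapped those of wildtype M0. The log2 change with stimulation was 0.02 in wildtype (95% interval -0.24 to 0.29) and -0.93 in cKO (SE 0.13, edgeR adjusted p = 6.82e-06). On library totals Srsf2 fell in wildtype too, by log2 0.56 (edgeR adjusted p = 0.000440), and changed by -1.46 in cKO. In M1 the cKO level was 0.59 times that of wildtype (log2 -0.76, SE 0.13, edgeR adjusted p = 0.000783). The genotype effects in the 2 states differed by log2 -0.95 (SE 0.18, edgeR adjusted p = 0.00533). Without wildtype M1 replicate 11, the highest library, the M1 difference was -0.58 (edgeR adjusted p = 0.00138). In the annotated transcripts, 16.6% of the 100-base stretches of Srsf2 also occur in another gene, Mettl23 among them, which was at 5.81 ± 0.07 CPM in wildtype M1 and 7.28 ± 0.33 in cKO M1 (SD, n = 3).

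Srsf5 (SRp40) and Srsf9 (SRp30c) went the other way. Srsf5 was at 151, 148 and 156 CPM in wildtype M0, 136, 136 and 135 in cKO M0, 104, 83.8 and 103 in wildtype M1 and 120.4, 121 and 123 in cKO M1. The cKO libraries lay below the wildtype libraries in M0 and above them in M1. The M0 difference of log2 -0.16 did not pass (edgeR adjusted p = 0.300), the M1 difference was 0.33 (SE 0.08, adjusted p = 0.0102), and the effects differed by 0.49 (SE 0.11, adjusted p = 0.0173). Without wildtype M1 replicate 11 the M1 difference was 0.22 and no longer passed (edgeR adjusted p = 0.0556), and it was also lost with only the groups compared. The difference between the effects was lost without wildtype M0 replicate 6 or cKO M1 replicate 8 (adjusted p = 0.0569 and 0.0534). Srsf9 was at 58.6, 64.7 and 57.6 CPM in wildtype M0, 60.3, 59.7 and 66.4 in cKO M0, 36.6, 30.4 and 39.4 in wildtype M1 and 57.3, 53.2 and 46.5 in cKO M1. The genotypes overlapped in M0, and in M1 every cKO library was above every wildtype library. The cKO level in M1 was 1.48 times that of wildtype (log2 0.56, SE 0.10, edgeR adjusted p = 0.00177), and the effects in the 2 states differed by 0.52 (SE 0.15, adjusted p = 0.0401). That last call held without cKO M1 replicate 9 or wildtype M1 replicate 12 and was lost without any of the other 10 libraries, with an adjusted p of up to 0.0986 without cKO M1 replicate 8. The fall of Srsf9 in cKO, -0.25 (edgeR adjusted p = 0.0414), was lost without cKO M0 replicate 1 or 3, cKO M1 replicate 8 or 9 or wildtype M1 replicate 10. DESeq2 size factors also lost it.

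Srsf1, the founding SR protein, and Srsf3, which also serves in export of messenger RNA, had the largest falls of the class in wildtype. Srsf1 was at 125, 145 and 126 CPM in wildtype M0, 159.6, 163 and 157 in cKO M0, 65.7, 56.0 and 58.1 in wildtype M1 and 84.8, 81.7 and 75.6 in cKO M1. Srsf3 was at 97.2, 94.5 and 85.0 CPM in wildtype M0, 119, 107 and 119 in cKO M0, 41.6, 42.3 and 38.6 in wildtype M1 and 63.1, 53.6 and 48.5 in cKO M1. For both genes the cKO libraries lay above the wildtype libraries in either state, and the M1 libraries lay below the M0 libraries in either genotype. Srsf1 changed with stimulation by log2 -1.14 (SE 0.09, edgeR adjusted p = 7.28e-09) in wildtype and -0.99 (SE 0.08, adjusted p = 3.95e-08) in cKO. Srsf3 changed by -1.18 (SE 0.10, adjusted p = 2.24e-08) and -1.07 (SE 0.10, adjusted p = 6.79e-08). The M1 difference between genotypes was 0.43 for Srsf1 (SE 0.09, edgeR adjusted p = 0.00276) and 0.43 for Srsf3 (SE 0.10, adjusted p = 0.00598). In M0 the differences of 0.27 and 0.32 did not pass (edgeR adjusted p = 0.107 and 0.0956), and the effects in the 2 states were not shown to differ (adjusted p = 0.461 and 0.669).

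Srsf10, which represses splicing when dephosphorylated, fell with stimulation by log2 0.86 in wildtype and was 0.34 higher in cKO M1 (edgeR adjusted p = 0.0198). That M1 call was lost without wildtype M1 replicate 11 or 12 or cKO M1 replicate 7 or 8, and with only the groups compared. Srsf6 and Srsf7 fell in both genotypes, by 0.80 to 1.11 on the log2 scale, and did not pass between genotypes. Srsf4, the lowest SR protein per kilobase, changed by -0.28 in wildtype and by -0.50 in cKO. The wildtype call was lost without wildtype M0 replicate 5 or 6, wildtype M1 replicate 10 or the low-count filter. For Srsf4, 36.3% of the stretches are shared with another gene. Srsf11 was at 79.0, 78.0 and 81.9 CPM in wildtype M0 and 89.1, 109 and 83.7 in wildtype M1, a log2 change of 0.24 (edgeR adjusted p = 0.0318) that became -0.35 on library totals and was lost without wildtype M1 replicate 11 or any of the 3 wildtype M0 libraries. The Tra2 proteins, which resemble SR proteins and bind purine-rich enhancers, fell in both genotypes: Tra2a by 0.74 and 0.71 and Tra2b by 0.55 and 0.72 on the log2 scale in wildtype and cKO. Neither passed between genotypes.

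The CLK kinases moved opposite to most of the other members with stimulation. All 4 CLK genes rose with stimulation in wildtype, and Clk3 and Clk4 in cKO, under TMM scaling; on library totals Clk2 and Clk3 turned to log2 -0.30 and -0.10 in wildtype, Clk1 stood at 0.01 and Clk4 at 1.15. The Clk2 rise of 0.29 was also lost without wildtype M0 replicate 4 or 5 or wildtype M1 replicate 11. In cKO on that scale, Clk3 turned to -0.16 and Clk4 stood at 0.19, which did not pass. In cKO M1, Clk1, Clk3, Clk4 and Srpk2 were lower than in wildtype. Clk4 was at 21.6, 20.1 and 22.0 CPM in wildtype M0 and 20.5, 21.2 and 20.1 in cKO M0. In M1 it was at 66.7, 88.1 and 57.5 CPM in wildtype and 31.1, 31.3 and 39.5 in cKO. The genotypes overlapped in M0, every M1 library was above every M0 library, and every wildtype M1 library was above every cKO M1 library.

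Clk4 rose 3.33-fold in wildtype (log2 1.74, SE 0.13, edgeR adjusted p = 1.12e-08) and 1.65-fold in cKO (log2 0.72, SE 0.13, adjusted p = 0.000177). Its cKO level in M1 was 0.48 times that of wildtype (log2 -1.06, SE 0.13, edgeR adjusted p = 0.000106), the smallest p of the 40 genes in that comparison. The genotype effects in the 2 states differed by log2 -1.02 (SE 0.19, edgeR adjusted p = 0.00533). Without wildtype M1 replicate 11 the M1 difference was -0.89 (edgeR adjusted p = 0.000288), the smallest difference among the alternatives.

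Clk1, the kinase best known for phosphorylating SR proteins in nuclear speckles, was at 57.7, 45.2 and 52.4 CPM in wildtype M0, 53.1, 44.3 and 49.6 in cKO M0, 74.0, 93.0 and 67.6 in wildtype M1 and 55.4, 43.8 and 54.0 in cKO M1. The cKO values overlapped between M0 and M1, and the wildtype M1 libraries were above all others. It rose by log2 0.59 in wildtype (SE 0.13, edgeR adjusted p = 0.000615), and its change in cKO was 0.06 (adjusted p = 0.695). The M1 difference was -0.61 (SE 0.13, edgeR adjusted p = 0.00387), and the difference between the effects in M1 and M0, -0.54, did not pass (adjusted p = 0.0808). Clk3 was -0.26 in cKO M1 (edgeR adjusted p = 0.0490), a call kept in 8 of 19 alternatives and lost without 8 of the 12 libraries, wildtype M1 replicate 11 among them, and Clk2 at -0.28 did not pass (adjusted p = 0.0845). Srpk2, by contrast, fell with stimulation. It was at 53.3, 51.7 and 51.4 CPM in wildtype M0, 50.7, 50.6 and 48.5 in cKO M0, 34.3, 33.6 and 31.4 in wildtype M1 and 27.0, 28.5 and 28.7 in cKO M1. Its log2 change was -0.65 in wildtype (SE 0.07, edgeR adjusted p = 6.09e-07) and -0.83 in cKO (SE 0.07, adjusted p = 3.98e-08). The M1 difference of -0.24 (edgeR adjusted p = 0.0312) was kept in 11 of 19 alternatives and lost without wildtype M0 replicate 6, cKO M1 replicate 7 or 8 or wildtype M1 replicate 10 or 11. Library totals, no low-count filter and only the groups compared also lost it. Srpk1 changed by -0.05 in wildtype and -0.29 in cKO, of which the second passed (edgeR adjusted p = 0.00953).

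Within the CLK family the make-up shifted, a measure that does not depend on library scaling. In CPM per kilobase, Clk4 made up 17.4 ± 0.22% of the 4 genes' sum in wildtype M0 and 17.9 ± 0.49% in cKO M0 (SD, n = 3). In M1 it made up 33.4 ± 2.25% in wildtype and 24.2 ± 1.68% in cKO. Clk1, Clk2 and Clk3 had lower mean shares in wildtype M1 than in wildtype M0: Clk1 went from 30.2% to 26.5%, Clk2 from 23.9% to 16.9% and Clk3 from 28.4% to 23.2%. A higher Clk4 share lowers the summed share of the others, so these values do not show falls in level. Under TMM scaling Clk1, Clk2 and Clk3 changed by log2 0.59, 0.29 and 0.49 in wildtype, and on library totals by 0.01, -0.30 and -0.10. The Clk4 shares of the 4 groups did not overlap except between wildtype M0 and cKO M0.

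**Figure D4:**
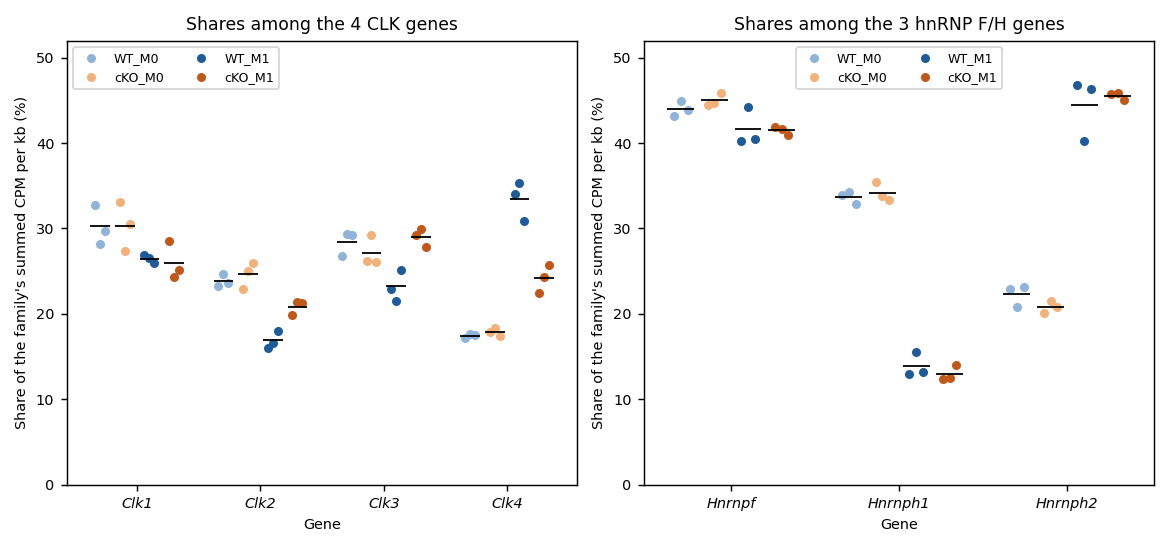
Share of each gene in its family's summed CPM per kilobase (vertical axis, percent, from 0) in each library, for the 4 CLK genes (left) and the 3 hnRNP F/H genes (right), coloured by group, with a bar at the group mean. Clk4 goes from 17.4% in wildtype M0 to 33.4% in wildtype M1 and 24.2% in cKO M1. Hnrnph1 lies above Hnrnph2 in M0 and below it in M1 in both genotypes.

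All 5 hnRNP A/B genes fell with stimulation in both genotypes, with a median log2 change of -1.13 in wildtype and -1.04 in cKO. Hnrnpa1, which binds exonic silencers and opposes Srsf1 at many exons, was at 250.4, 282 and 263 CPM in wildtype M0, 306, 286 and 291 in cKO M0, 115, 146 and 101 in wildtype M1 and 95.3, 89.6 and 91.1 in cKO M1. The cKO libraries were above the wildtype libraries in M0 and below them in M1. Its log2 change was -1.13 in wildtype (SE 0.11, edgeR adjusted p = 1.11e-07) and -1.68 in cKO (SE 0.11, adjusted p = 1.23e-09). The M1 difference between genotypes was -0.39 (SE 0.11, edgeR adjusted p = 0.0180), and the effects in the 2 states differed by -0.54 (SE 0.15, adjusted p = 0.0369). Without wildtype M1 replicate 11 the M1 difference was -0.25 (edgeR adjusted p = 0.0711) and without cKO M1 replicate 8 it was -0.39 (adjusted p = 0.0615), so neither passed. The difference between the effects was lost without cKO M0 replicate 1 or 3, wildtype M0 replicate 4 or 6, cKO M1 replicate 8 or wildtype M1 replicate 10 or 11, with an adjusted p of up to 0.0910. Its transcripts share 25.9% of their 100-base stretches with 11 other annotated genes, so its counts can be split with or drawn from near-identical copies.

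Hnrnpa2b1, a close paralog of Hnrnpa1, was at 462, 519 and 483 CPM in wildtype M0, 525, 526 and 530.2 in cKO M0, 272, 235 and 253 in wildtype M1 and 331, 311 and 303 in cKO M1. Its M1 difference, 0.32 (SE 0.08, edgeR adjusted p = 0.00994), had the opposite sign to that of Hnrnpa1 and was lost without wildtype M1 replicate 11 (0.25, adjusted p = 0.0548). Stimulation changed it by log2 -0.95 in wildtype (SE 0.08, edgeR adjusted p = 1.91e-08). Hnrnpa0, which also binds AU-rich messenger RNA, was at 133, 153 and 141 CPM in wildtype M0, 119, 154 and 147 in cKO M0, 55.7, 65.6 and 66.7 in wildtype M1 and 88.4, 80.1 and 79.8 in cKO M1. It changed by -1.18 in wildtype (SE 0.10, edgeR adjusted p = 4.48e-08) and was 0.40 higher in cKO M1 (adjusted p = 0.0133), a call lost without wildtype M1 replicate 10 (adjusted p = 0.0565). The M1 libraries of both genes were below all M0 libraries, and the cKO M1 libraries were above the wildtype M1 libraries.

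Hnrnpa3 and Hnrnpab, the other members of this family, passed with stimulation and not between genotypes. Hnrnpa3 was at 52.1, 55.9 and 53.2 CPM in wildtype M0, 52.7, 56.5 and 53.1 in cKO M0, 23.2, 24.9 and 20.9 in wildtype M1 and 23.2, 25.7 and 25.8 in cKO M1, a log2 change of -1.22 (SE 0.08, edgeR adjusted p = 2.59e-09) and -1.12 (SE 0.08, adjusted p = 7.37e-09). Hnrnpab was at 230.3, 262 and 232 CPM in wildtype M0, 245, 299 and 293 in cKO M0, 121, 128 and 119 in wildtype M1 and 151, 129 and 126 in cKO M1, a log2 change of -0.98 and -1.04 (in cKO SE 0.10, edgeR adjusted p = 9.35e-08). Within the family's summed CPM per kilobase, Hnrnpa1 made up 27.3% in wildtype M0, 27.9% in cKO M0, 25.7% in wildtype M1 and 18.1% in cKO M1. Counts of Hnrnpa3 (25.6% of stretches shared, with 25 other genes) carry the same uncertainty as those of Hnrnpa1. Hnrnpab shares 18.4% of its stretches, on either strand, with 1 other gene, the protein-coding Phykpl.

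The hnRNP F/H proteins bind runs of guanines, and their genes split. Hnrnph1 was at 199.8, 214 and 189 CPM in wildtype M0, 216, 221 and 223 in cKO M0, 61.7, 64.9 and 57.0 in wildtype M1 and 63.1, 59.7 and 64.1 in cKO M1. This was the largest fall among the 40 genes in both genotypes, log2 -1.71 in wildtype (SE 0.08, edgeR adjusted p = 1.38e-11) and -1.82 in cKO (SE 0.08, adjusted p = 6.76e-12). Hnrnph2, its X-linked paralog, was at 101, 96.7 and 99.8 CPM in wildtype M0, 91.6, 105 and 104 in cKO M0, 166, 126 and 149.5 in wildtype M1 and 174, 164 and 154 in cKO M1. It rose by 0.57 in wildtype (SE 0.10, edgeR adjusted p = 6.65e-05) and 0.71 in cKO (SE 0.10, adjusted p = 7.04e-06), or -0.01 and 0.18 on library totals. M0 and M1 libraries did not overlap for either gene, and neither passed between genotypes. As shares of the family's summed CPM per kilobase, which are free of scaling, Hnrnph1 went from 33.7 ± 0.73% to 13.9 ± 1.39% in wildtype and from 34.2 ± 1.1% to 13.0 ± 0.92% in cKO (SD, n = 3). Hnrnph2 went from 22.3 ± 1.33% to 44.5 ± 3.64% in wildtype and from 20.8 ± 0.72% to 45.5 ± 0.47% in cKO. Hnrnpf fell by 0.52 and 0.54 on the log2 scale, and 49.4% of its stretches are shared with other genes.

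The 6 further hnRNPs all fell in both genotypes, by 0.25 to 0.77 in wildtype and 0.33 to 0.62 in cKO on the log2 scale. Hnrnpm, which binds GU-rich RNA, was at 230.4, 257 and 239.9 CPM in wildtype M0, 238, 250.4 and 240.3 in cKO M0, 139, 131 and 157 in wildtype M1 and 197, 186 and 175 in cKO M1. The genotypes overlapped in M0, and in M1 every cKO library was above every wildtype library. The M1 difference was 0.39 (SE 0.08, edgeR adjusted p = 0.00421), and the difference between the effects in the 2 states, 0.39, missed the threshold (adjusted p = 0.0523). Hnrnpu, the scaffold attachment protein, was 0.25 higher in cKO M1 (edgeR adjusted p = 0.0225). That call was lost without wildtype M1 replicate 11 or 12, cKO M1 replicate 8 or the low-count filter, and with only the groups compared. Hnrnpc, Hnrnpd, Hnrnpk and Hnrnpl, which bind uridine tracts, AU-rich elements, cytidine tracts and CA repeats, did not pass between genotypes in either state. Hnrnpd fell in wildtype by 0.30 with overlapping M0 and M1 libraries, and lost the call without wildtype M0 replicate 5 or wildtype M1 replicate 11.

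The 2 polypyrimidine tract proteins moved apart, as the hnRNP F/H genes did. Ptbp1, the broadly expressed repressor of exons, fell by 0.86 in wildtype and 0.79 in cKO on the log2 scale. Its paralog Ptbp3 was at 254, 255 and 257 CPM in wildtype M0, 259.6, 273 and 251 in cKO M0, 332, 269 and 299 in wildtype M1 and 319.6, 354 and 340.2 in cKO M1. Ptbp3 rose by 0.23 in wildtype (edgeR adjusted p = 0.0191; lost without wildtype M0 replicate 4 or wildtype M1 replicate 10) and 0.37 in cKO (adjusted p = 0.000769), but was -0.35 and -0.16 on library totals. Neither passed between genotypes.

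Among the genes of splice site recognition, U2af1, which reads the AG at the acceptor site, was the single member called between genotypes before stimulation. It was at 30.2, 34.7 and 28.9 CPM in wildtype M0, 39.4, 42.9 and 42.1 in cKO M0, 21.0, 21.3 and 20.9 in wildtype M1 and 25.6, 24.9 and 21.9 in cKO M1. The cKO libraries were above the wildtype libraries in both states. The difference was 0.41 in M0 (SE 0.09, edgeR adjusted p = 0.0422) and 0.20 in M1, where it did not pass (adjusted p = 0.151). The M0 call was lost without cKO M0 replicate 2 or 3, wildtype M0 replicate 4 or 6, cKO M1 replicate 8 or wildtype M1 replicate 10 or 12, with an adjusted p of up to 0.266. The next members in M0, Srsf3, Srsf7, Srsf10, Srsf1 and Tra2b, had log2 differences of 0.32, 0.40, 0.29, 0.27 and 0.27, each with every cKO library above every wildtype library, and did not pass. In M0 the proliferation genes were also higher in cKO, 3 of 17 passing, with a median log2 difference of 0.30; their part in these values was not tested.

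Rbm39, a relative of U2af2, was at 147, 127 and 141 CPM in wildtype M0, 140.4, 136 and 141 in cKO M0, 207, 252 and 178 in wildtype M1 and 160.3, 150.2 and 166 in cKO M1. It rose in wildtype by 0.62 (SE 0.10, edgeR adjusted p = 7.00e-05), or 0.03 on library totals, and the cKO change of 0.19 did not pass (adjusted p = 0.117). Its M1 difference of -0.42 (edgeR adjusted p = 0.0113) was lost without wildtype M1 replicate 11 (-0.30, adjusted p = 0.0567) or cKO M1 replicate 8 (adjusted p = 0.0553). U2af2, which binds the polypyrimidine tract, fell by 0.35 and 0.43, and U2af1 by 0.57 and 0.78, in wildtype and cKO. Sf1, which binds the branch point, and Sf3b1, of the U2 snRNP, had log2 changes between -0.09 and 0.17 under TMM scaling. On library totals Sf1 changed by -0.55 and -0.62 and Sf3b1 by -0.61 and -0.37 in wildtype and cKO.

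Mbnl1, a muscleblind protein that binds pre-mRNA and shifts exon choice by position, was at 595, 581 and 595 CPM in wildtype M0, 575, 543 and 535 in cKO M0, 270.2, 232 and 253 in wildtype M1 and 274, 294 and 289.7 in cKO M1. Every M1 library was below every M0 library. The log2 change was -1.23 in wildtype (SE 0.08, edgeR adjusted p = 6.06e-10) and -0.94 in cKO (SE 0.07, adjusted p = 1.44e-08). The genotype differences of -0.10 in M0 and 0.19 in M1 did not pass (edgeR adjusted p = 0.489 and 0.0951).

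**Figure D5:**
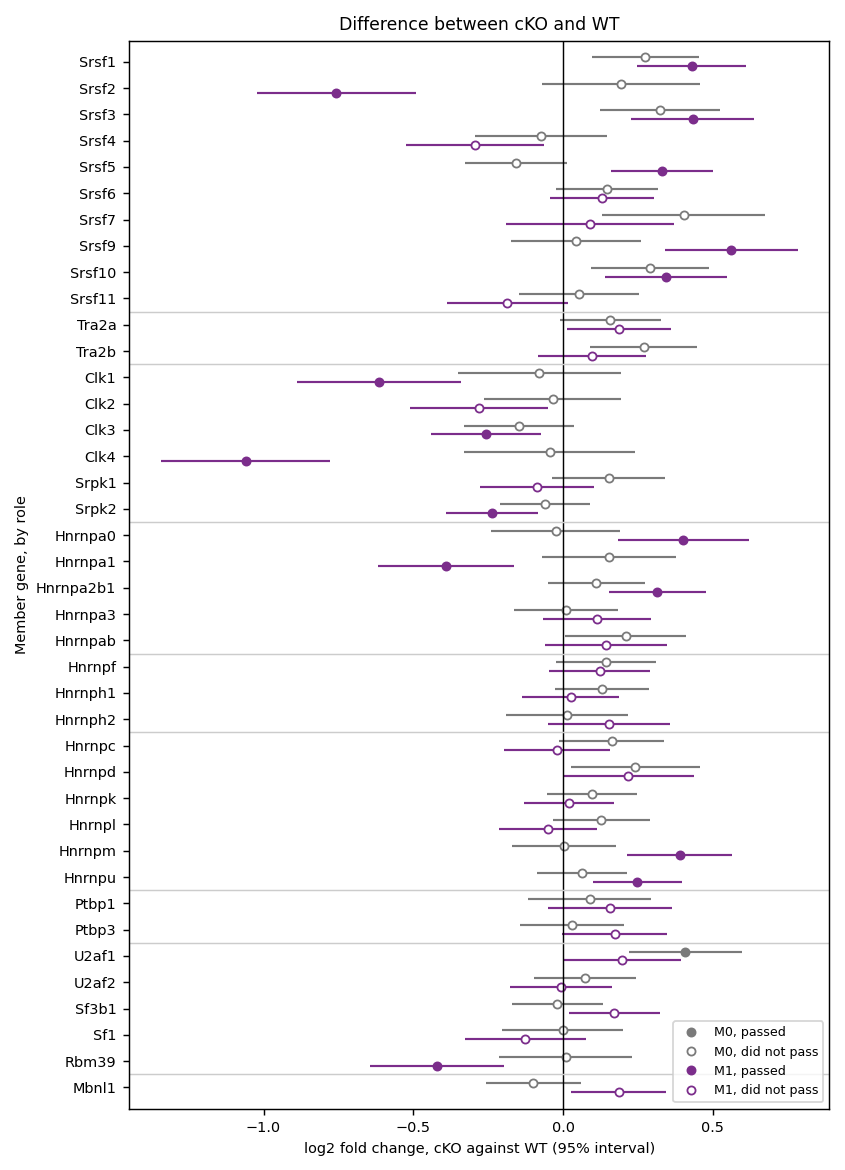
Log2 fold change of cKO against wildtype (horizontal axis) with its 95% interval for each gene (vertical axis), in M0 (grey) and M1 (purple); filled points passed the test. In M0 the single filled point is U2af1, and in M1 Clk4 at -1.06 and Srsf2 at -0.76 lie farthest to the left and Srsf9 at 0.56 farthest to the right.

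Compared per kilobase of gene length, the order of the members changed with stimulation. The length is that given per gene with the counts, and the length of the transcripts expressed was not measured. The order between genes depends on it. In wildtype M0 the highest levels were those of Hnrnpab (86.7 CPM per kb), Hnrnpa1 (84.0) and Hnrnpa2b1 (74.1), and the lowest was that of Clk4 (3.66). In wildtype M1 Hnrnpk (51.2 CPM per kb) was highest and Srpk2 (2.38) lowest. Clk4 went from rank 40 in wildtype M0 to rank 23 in wildtype M1 and rank 34 in cKO M1. Hnrnph2 went from rank 21 to rank 8 in wildtype, and Hnrnph1 from rank 13 to rank 26. Neighbours in this order can lie within their spread, as Hnrnpab and Hnrnpa1 do in wildtype M0 at 86.7 ± 6.33 and 84.0 ± 4.98 CPM per kb (SD, n = 3), and the order was not tested.

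The members share a feature of annotation that was not used to choose them. In GENCODE M21, 30 of the 40 (75.0%) have a transcript annotated as subject to nonsense-mediated decay, beside 29.0% of the 12325 protein-coding genes tested. A transcript with a retained intron is annotated for 32 (80.0%), beside 58.9%, and the median number of annotated transcripts is 10, beside 5. Genes with more annotated transcripts have more chances to hold either kind. These transcripts count toward the gene totals above.

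Outside the 40 genes, 160 of 167 further genes of splicing and of nonsense-mediated decay were tested, on lists chosen with earlier results of these data known. With stimulation 50 rose and 67 fell in wildtype, 31.3% and 41.9%, which is near the 34.2% and 37.1% of all genes. In cKO 40 rose and 76 fell, 25.0% and 47.5%, beside 34.2% and 36.0% of all genes. On library totals 16 rose and 123 fell in wildtype and 12 rose and 124 fell in cKO. Of the 80 core spliceosome genes tested, 20 rose and 42 fell in wildtype (7 and 64 on library totals), with Lsm2, of the Lsm ring, at log2 -2.37 and Snrpb, of the Sm ring, at -1.19, while Prpf38b rose 2.23-fold. Of the 11 genes of nonsense-mediated decay, 7 rose and 2 fell in wildtype and 8 rose and 2 fell in cKO, a balance that shifts to 4 and 4 and to 5 and 3 on library totals. Smg9 rose by 1.47 and 1.64, while Smg6, the endonuclease, fell by 0.88 in wildtype. Of the 6 other kinases, 4 rose and 1 fell in either genotype (2 and 3 on library totals), among them Dyrk1a at 0.85 and 0.67 and Cdk12 at 0.90 and 0.96. On library totals Dyrk1a stood at 0.27 in wildtype and 0.13 in cKO, where it did not pass (edgeR adjusted p = 0.134). Cdk12 stood at 0.32 and 0.42. Sfpq, a paraspeckle protein, fell by 1.55 in wildtype and 1.01 in cKO, and Mbnl2, a paralog of Mbnl1, rose by 0.99 and 0.93. Of the 13 other hnRNPs, 3 rose and 6 fell in wildtype (0 and 11 on library totals), with Hnrnpr at -1.17.

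Between genotypes, 2 of these 160 genes passed in M0, Lsm3 (log2 0.70, edgeR adjusted p = 0.0449) and Lsm2 (0.50, adjusted p = 0.0461). Both were higher in cKO, which is 1.25% higher and 0% lower beside 0.662% and 0.953% of all genes. Without cKO M0 replicate 3 or wildtype M0 replicate 6, the fit called 0 of all genes higher in M0, so both calls were lost. In M1, 11 were higher and 10 lower in cKO, or 22 and 7 on library totals. The lower ones included Zrsr2, of the minor spliceosome (-0.68), and Prpf38b (-0.46), Rsrc2 (-0.46) and Pnn (-0.36), and the higher ones Sfpq (0.55), Ddx46 (0.50), Upf1, the helicase of nonsense-mediated decay (0.48), and Luc7l3 (0.42). The difference between the genotype effects passed upward for 3, Sfpq (0.54), Smg6 (0.45) and Hnrnpul2 (0.44), and downward for 4, Zrsr2 (-0.81), Rsrc2 (-0.67), Pnn (-0.43) and Prpf38b (-0.39), which is 1.88% and 2.50% beside 4.02% and 4.14% of all genes. Pnn and Prpf38b passed near the threshold (edgeR adjusted p = 0.0475 and 0.0445). On library totals neither of them passed (adjusted p = 0.0579 and 0.0600). Of the 160 genes 6.88% were called higher and 6.25% lower in M1, both below the 8.98% and 9.67% of all genes, while 22.5% and 17.5% of the members, chosen with earlier results known, were called.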

How the data were processed

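Total RNA of 12 libraries in 4 groups of 3 was sequenced. The deposited values are raw counts per gene, made by the authors on GRCm39 with featureCounts 2.0.3 after HISAT2 2.2.1, Trimmomatic 0.39 and SAMtools 1.16.1, per the submitters' processing notes. The sources used here name no strand option, multimapping option or annotation release. Of the count values from 1 to 10, 60.9% were even, so counts were also halved as an alternative. Of 56980 gene IDs, 52073 matched a symbol.

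edgeR 4.0.16 in R 4.3.3 was used: filterByExpr (minimum count 10, minimum total 15), TMM factors, 1 mean per group over all 12 libraries (common biological coefficient of variation 0.111), quasi-likelihood F-test, Benjamini-Hochberg adjustment over 15110 genes and a threshold of 0.05. It was tested on simulated counts. Standard errors come from the fold change and F. Alternatives were DESeq2 1.42.0 (Wald test), limma-voom (limma 3.58.1), library totals, no filter, only the groups compared and each library left out. A further alternative, called DESeq2 size factors above, was edgeR's own test with edgeR's relative log expression factors in place of TMM. For each contrast, up to 8 members that passed with the smallest p get values in every library, and up to 3 genes of each other list are named; Rbm39, Hnrnph2, Srsf11 and Ptbp3 were added after their values were seen. The members and lists were chosen with earlier results of these data known. Shared 100-base stretches and transcript types come from GENCODE M21 (GRCm38). Protein sequences were not used here. Some genes of the lists are not reported here.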

Additional observations from a re-analysis of the deposited data

Results flagged for a closer look

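For 5 members the effect of the cKO differed between M1 and M0 by edgeR's test of the difference itself, adjusted over all genes. Clk4, an SR protein kinase, differed by log2 -1.02 (SE 0.19): its cKO libraries overlapped those of wildtype in M0 and were lower in M1. Srsf2, an SR protein, differed by -0.95, with its cKO libraries higher in M0, where the test was not passed, and lower in M1. Hnrnpa1, which binds exonic silencers, differed by -0.54, with its cKO libraries higher in M0, not passing, and lower in M1. Srsf5 differed by 0.49 and Srsf9 by 0.52, both with cKO libraries above wildtype libraries in M1. In wildtype M1, replicate 11 was the highest library for Clk4, Srsf2 and Hnrnpa1 and the lowest for Srsf5 and Srsf9. Without it the differences were -0.83 for Clk4, -0.77 for Srsf2, -0.40 for Hnrnpa1, 0.39 for Srsf5 and 0.41 for Srsf9, of which those of Hnrnpa1 (adjusted p = 0.0587) and Srsf9 (adjusted p = 0.0898) did not pass. The groups hold 3 libraries each, too few to test a library as an outlier.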

How the results depend on the processing

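Of the calls between M1 and M0, 27 of 36 in wildtype and 28 of 34 in cKO held in every alternative; between genotypes, 7 of 16 held in M1 and 0 of 1 in M0, and 2 of 5 held in the test of the difference between states. In M0 the count of members higher in cKO was 1, but 4 with DESeq2's Wald test, 3 without the low-count filter and 2 with only the groups compared. Higher calls over all genes went the same way, from 100 of 15110 to 408 of 12177, 709 of 27501 and 201 of 14412. On library totals, 1 member rose with stimulation in wildtype and 0 in cKO, and 4 had an upward difference between states. The downward differences between states were 5 with DESeq2 and 5 without the filter. Among all genes, upward differences numbered 796 of 15110 on library totals, beside 608 in the main fit. Downward ones numbered 1007 of 13348 with DESeq2 and 1186 of 27501 without the filter, beside 625 of 15110. Of the members with a positive change with stimulation, 7 of 10 in wildtype and 7 of 9 in cKO turned negative on library totals. Those that had passed were in wildtype Srsf11 (-0.35), Clk2 (-0.30), Clk3 (-0.10), Hnrnph2 (-0.012) and Ptbp3 (-0.35), and in cKO Clk3 (-0.16), Ptbp3 (-0.16) and Sf3b1 (-0.37). Those that had not passed were Srsf2 and Sf1 in wildtype and Clk1, Clk2, Rbm39 and Srsf11 in cKO. That scale lacks the TMM factors and lowers every M1 against M0 value by about the same amount. For the other changes of count the cause was not tested. With each library left out in turn, members higher and lower numbered 0 to 3 and 0 to 0 between genotypes in M0, 5 to 9 and 3 to 8 in M1, 5 to 8 and 26 to 28 with stimulation in wildtype, 4 to 5 and 28 to 30 in cKO, and 0 to 3 and 2 to 5 in the difference between states. Over all genes, higher and lower calls between genotypes in those fits ranged from 0 to 202 and from 1 to 258 in M0. In M1 they ranged from 671 to 1384 and from 985 to 1698. No paired analysis was possible because the groups share no replicate numbers. Every member held at least 365 counts in each library, and with 3 libraries a group the spread between libraries limits what can be detected.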
